A study of Rattus norvegicus with 12 samples.

Results

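The comparison described here is the effect of chronic hypoxia on the right ventricle (RV), and it uses 6 of the 12 libraries of the study. RVH is the group of 3 libraries (replicates 1, 2 and 4) made from RV free walls of male Sprague-Dawley rats, 3 to 4 months old, that had been kept for 2 weeks in a hypobaric chamber at an oxygen level equal to 10% O2. RVN is the group of 3 libraries (replicates 1, 2 and 3) from rats of the same strain, sex and age that breathed room air. Each library came from 1 rat, and the hypoxic and the normoxic rats were different animals, so the libraries are not paired across exposures. LVH and LVN are the left ventricles (LV) of the same hearts, and they enter only where the response of the RV is set against that of the LV. The labels name no transgene or deletion. The genes described are those that reached at least 1 TPM (transcripts relative to a fixed library total) in 3 or more of the 6 RV libraries, which was 11820 of the 23526 gene entries used.

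The right ventricle pumps blood through the lungs against a low pressure. When the inspired air is poor in oxygen the small arteries of the lung constrict and remodel, the pressure that the RV works against goes up, and its wall thickens. The LV of the same animal breathes the same air without that added load, but the RV of a hypoxic rat meets low oxygen and a raised load at once, and within RVH and RVN they cannot be told apart. Well-known responses of a loaded ventricle are the return of genes of the fetal heart, a turn away from fatty acids as fuel and growth of the extracellular matrix. Adult cardiac myocytes seldom divide, while fibroblasts, vessel cells and leukocytes of the wall can.

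The RNA was taken from whole free walls with the atria removed, so every library is a mixture of cell types, and in such bulk samples fewer cells of a type and less RNA per cell cannot be told apart. Depth, as the total of estimated counts, ran between 23146197 and 27310241 in RVH and between 21468274 and 39991848 in RVN. Markers of ventricular myocytes were present in every library: the 17 measured ones summed to 71090 to 78710 TPM in RVH and to 81090 to 84250 TPM in RVN. Transcripts of the mitochondrial genome took 43.0%, 38.3% and 44.1% of the TPM of the RVH libraries and 45.4%, 45.1% and 45.8% of the RVN libraries (exact permutation test, two-sided, p = 0.1, the smallest that 3 against 3 libraries allow). With library totals in place of the TMM factors of the reported fit (trimmed mean of M values), the median log2 fold change of the genes tested was 0.12 in place of 0.00. Those factors were 1.124, 1.206 and 0.988 for RVH replicates 1, 2 and 4 and 1.006 to 1.021 for RVN. TPM values and list medians of single libraries are given without them.

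RVH replicate 4 stood apart from the other hypoxic libraries. On the first principal component of the 6 RV libraries (43% of the variance) it lay at -12.6, against -42.8 and -45.8 for RVH replicates 1 and 2, while the RVN libraries lay between 28.2 and 42.9. Its rank correlation with the RVN libraries was 0.971 to 0.975 across genes, and that of RVH replicates 1 and 2 with the same libraries was 0.953 to 0.963. Where a count of calls differed without it, the value without it is given or lies in the range given for single libraries left out. The number of genes at 1 TPM or more was 11871 ± 314 in RVH and 11545 ± 88 in RVN (mean ± SD, n = 3 each), a difference of 326.7 genes that an exact permutation test did not separate from the spread between libraries (two-sided, p = 0.3).

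Differences were tested by quasi-likelihood in edgeR, with the 12 libraries in 1 model, and a gene is called changed where its p, adjusted by Benjamini and Hochberg over the 13756 genes tested, was under 0.05. Fold changes are RVH over RVN on the log2 scale, and each is given with its standard error (SE). Of the genes tested, 1022 were higher in RVH (7.43%) and 1045 were lower (7.6%). Among the 11820 genes described, 932 were higher (7.88%) and 999 lower (8.45%), or 16.3% in all. The changes were mostly moderate: the median log2 fold change was 0.66 for the higher and -0.61 for the lower genes, and 248 higher and 165 lower genes passed 2-fold. Of the genes described, 119 reached 1 TPM in every RVH library and in no RVN library, and 37 showed the reverse. Among called genes the libraries of the groups did not overlap for 902 of the 932 higher and 939 of the 999 lower genes, against 21.9% (RVH above) and 14.0% (RVH below) of all genes described.

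**Figure D1:**
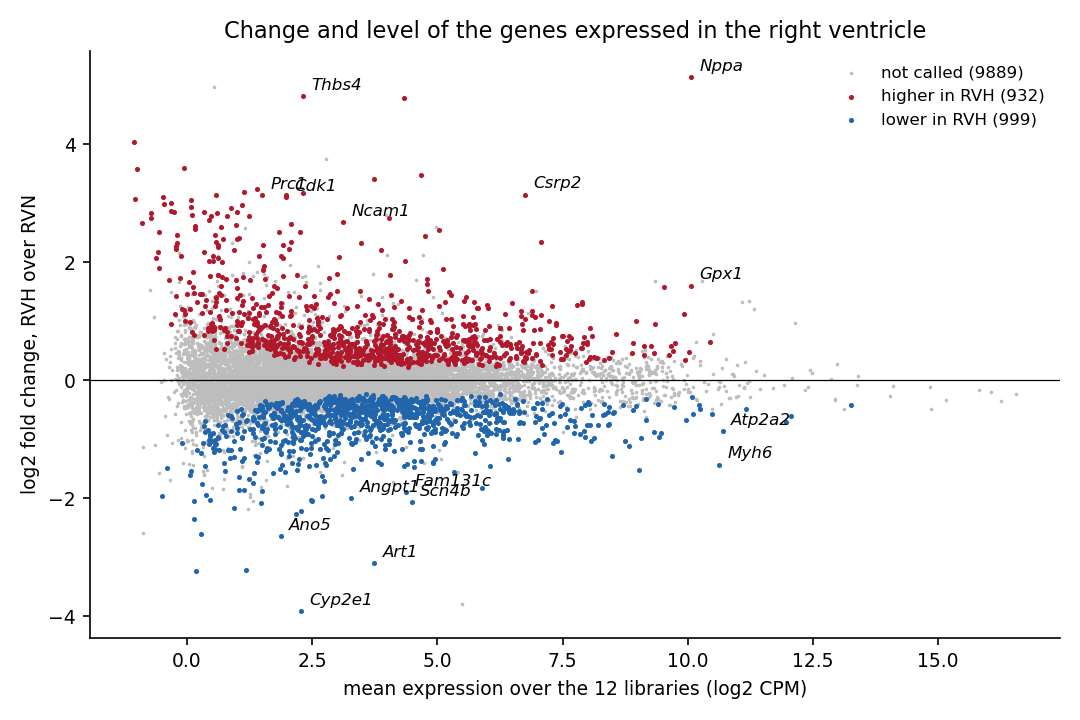
Each point is 1 of the 11820 genes described, with its mean level over the 12 libraries on the x axis (log2 CPM) and its log2 fold change, RVH over RVN, on the y axis; red and blue points passed the edgeR test as higher and lower, gray points did not, and labels mark some of the named genes. The 932 higher and 999 lower genes spread over most levels, and Nppa stands highest with a log2 fold change of 5.13.

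The number of calls depended on single libraries. Over the genes tested, 1129 were higher and 1331 lower without RVH replicate 4, and 806 of the 932 higher and 914 of the 999 lower genes described were called again. Without RVH replicate 1 the numbers were 400 and 334, and without RVH replicate 2 they were 321 and 278. Among the normoxic libraries, 295 genes were higher and 324 lower without RVN replicate 1, 661 and 702 without RVN replicate 2, and 368 and 437 without RVN replicate 3. No gene was called in the opposite direction in any of these fits. The balance of higher and lower genes depended on the scaling: with library totals 864 were higher and 429 lower, so that 66.8% of the calls were higher, against 49.4% with TMM.

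Among the genes described the greatest fitted rise was that of Nppa, whose product is cut to atrial natriuretic peptide and which is a classical marker of a loaded ventricle. Nppa stood at 1064, 1927 and 919 TPM in RVH, against 43.6, 27.6 and 29.3 TPM in RVN, a log2 fold change of 5.13 ± 0.46 (adjusted p = 0.000499). All 3 hypoxic libraries lay far above the normoxic ones, RVH replicate 4 included. Thbs4, a thrombospondin of the extracellular matrix, had 14.6, 27.7 and 4.14 TPM in RVH and 0.640, 0.495 and 0.350 TPM in RVN (4.82 ± 0.94, adjusted p = 0.0102). Tceal7, a protein of the TCEAL family, had 16.4, 49.1 and 15 TPM in RVH and 2.50, 1.06 and 2.65 TPM in RVN (3.48 ± 0.57, adjusted p = 0.00596). RVH replicate 2 held the highest value of both, and Thbs4 reached 1 TPM in no RVN library. Genes named for their rise, fall or smallest adjusted p were taken only from called genes without overlap. Its absence in them was thus fixed by that choice. Csrp2, a LIM-domain protein best known from smooth muscle, reached 307, 426 and 110 TPM in RVH, against 22.4, 14.6 and 47.4 TPM in RVN (3.15 ± 0.62, adjusted p = 0.0104). Its lowest RVH value was again that of replicate 4, and its call was lost without RVN replicate 1 (adjusted p = 0.0534).

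Other large rises were of genes known from blood cells and leukocytes, though the libraries do not show which cells held the transcripts. Alox15, a lipoxygenase that oxidises arachidonic acid, had 6.14, 28.6 and 14.01 TPM in RVH and 1.40, 1.27 and 1.44 TPM in RVN (3.42 ± 0.88, adjusted p = 0.0270). Cd52, a surface glycoprotein of leukocytes, had 3.22, 6.11 and 5.81 TPM in RVH and 0.639, 0.370 and 0.559 TPM in RVN (3.14 ± 0.63, adjusted p = 0.0110). Ahsp, the chaperone of free alpha-globin in erythroid cells, had 2.78, 10.6 and 4.82 TPM in RVH and 0.584, 0.546 and 0.652 TPM in RVN (3.17 ± 0.91, adjusted p = 0.0403). Lack of overlap was a condition for the choice of these 3 genes, and the hypoxic libraries spread widely. Cd52 reached 1 TPM in no RVN library, so that it entered through the group in which it is high. The call of Alox15 was lost when RVH replicate 2 or any 1 of the RVN libraries was left out (adjusted p up to 0.102), and that of Ahsp when any RV library or any LVN library was (up to 0.148). Of 8 erythroid markers Ahsp was the only one called (median 1.09), and it reached 1 TPM in no RVN library, so that it entered through the group in which it is high. Of the 7 others none was called. The number called was 0 without any 1 RV library, RVH replicate 4 included, 2 with library totals and 6 in the 6 RV libraries alone, and the list summed to 7213 to 11410 TPM in RVH and to 3681 to 4671 TPM in RVN. The part of blood left in the tissue was not tested.

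The greatest falls were of enzymes, membrane proteins and secreted factors. Cyp2e1, a cytochrome P450 that oxidises ethanol and other small molecules, was at 0.825, 0.618 and 1.31 TPM in RVH, against 21.8, 9.82 and 6.29 TPM in RVN (-3.91 ± 0.50, adjusted p = 0.00342). Art1, a surface ADP-ribosyltransferase of striated muscle, was at 3.23, 1.28 and 4.68 TPM in RVH, against 21.6, 28.4 and 23.4 TPM in RVN (-3.10 ± 0.45, adjusted p = 0.00442). Its relative Art5 was at 2.02, 0.736 and 2.76 TPM in RVH, against 7.28, 8.30 and 8.19 TPM in RVN (-2.21 ± 0.49, adjusted p = 0.0155), a call that was lost without RVH replicate 1 or 2 (adjusted p up to 0.0583). Lack of overlap was a condition for the choice of all genes in this paragraph. Ano5, an anoctamin needed for repair of the muscle membrane, was at 0.952, 0.670 and 1.42 TPM in RVH, against 6.58, 5.69 and 5.19 TPM in RVN (-2.64 ± 0.37, adjusted p = 0.00409). Spock2, a matrix proteoglycan, was at 1.01, 1.17 and 1.53 TPM in RVH, against 4.99, 4.77 and 4.73 TPM in RVN (-2.07 ± 0.30, adjusted p = 0.00442). Klhl33, a kelch-like protein, was at 3.22, 2.15 and 3.46 TPM in RVH, against 11.6, 12.5 and 10.0 TPM in RVN (-2.05 ± 0.27, adjusted p = 0.00347). The normoxic libraries of Spock2 were close to each other, and RVH replicate 4 was the hypoxic library nearest to RVN for Ano5, Spock2 and Klhl33. A930018M24Rik, with a log2 fold change of -2.27 ± 0.51 (adjusted p = 0.0161), completes the falls that were named for their size with the channel genes Scn4b and Kcnk2 and the vessel factor Angpt1, and its call was lost without RVH replicate 1 or 2 and with limma on log2(TPM + 0.1) (adjusted p up to 0.073).

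**Figure D2:**
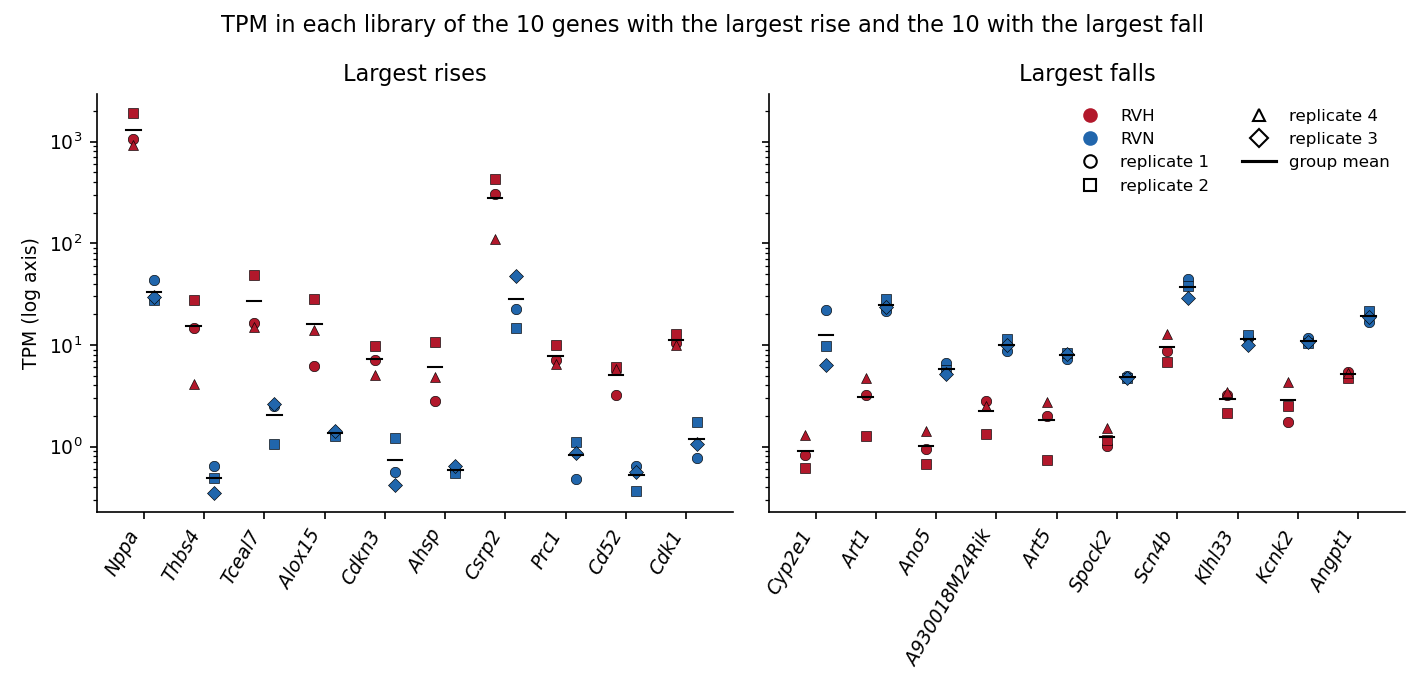
Level in each RV library (TPM, log axis) of the 10 genes with the largest rise and the 10 with the largest fall among called genes whose groups do not overlap; each symbol is 1 library, RVH in red and RVN in blue, its shape gives the replicate number (a triangle is replicate 4), and the bar is the group mean. Nppa lies at 919 to 1927 TPM in RVH and at 27.6 to 43.6 TPM in RVN, and Cyp2e1 at 0.618 to 1.31 TPM in RVH and at 6.29 to 21.8 TPM in RVN.

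The genes with the smallest adjusted p were called in both directions, and Nppa, given above, is one of them. Fam131c was at 10.4, 9.99 and 10.4 TPM in RVH, against 31.2, 36.7 and 37.9 TPM in RVN (-1.89 ± 0.11, adjusted p = 2.62e-05). Inha, the alpha subunit of inhibin, was at 52.1, 51.1 and 31.3 TPM in RVH, against 7.18, 7.57 and 7.71 TPM in RVN (2.44 ± 0.17, adjusted p = 9.38e-05). Gpx1, the cytosolic glutathione peroxidase that reduces hydrogen peroxide, was at 1603, 1633 and 1359 TPM in RVH, against 440, 484 and 466 TPM in RVN (1.60 ± 0.12, adjusted p = 0.000115). Lack of overlap was a condition for this choice as well, and for Inha and Gpx1 RVH replicate 4 was the lowest hypoxic library. Klhdc8b, a kelch-domain protein, was higher (1.72 ± 0.13, adjusted p = 0.000187), and so were Bok, a BCL2-family protein of the mitochondrial death pathway (2.21 ± 0.23, adjusted p = 0.00167), and Myl6, the essential light chain of non-muscle and smooth muscle myosin (1.01 ± 0.10, adjusted p = 0.000962). Lower were RT1-DMb, a chain of the rat molecule that loads peptides on MHC class II (-1.03 ± 0.09, adjusted p = 0.000305), and Gsn, the actin-severing protein gelsolin, which was at 493, 517 and 466 TPM in RVH and 875, 935 and 829 TPM in RVN (-0.95 ± 0.10, adjusted p = 0.00174). Stmn1, the microtubule-destabilising protein stathmin, was at 84.2, 103 and 79.9 TPM in RVH, against 40.4, 49.4 and 37.1 TPM in RVN (0.95 ± 0.10, adjusted p = 0.00174). Each of these calls held in every alternative fit. RT1-DMa, the other chain of the molecule of RT1-DMb, went the other way (0.77, adjusted p = 0.0259). Its call was lost without RVH replicate 1 or 2 or RVN replicate 1 or 3, and in the 6 RV libraries alone. Of 7 members of the MHC class II list 1 was higher and 1 lower (median -0.27), and 0 to 1 and 1 with any 1 library left out.

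Known groups of genes were then read as lists. The 53 lists hold 1027 genes, of which 999 matched an entry of the table, and for each list the members are its genes at 1 TPM or more in at least 3 of the 6 RV libraries. Each count is read against the 7.88% of genes described that were higher and the 8.45% that were lower, and each median log2 fold change against -0.01 over all genes described. Counts and medians describe a list, and no test of a list as a whole was made.

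**Figure D3:**
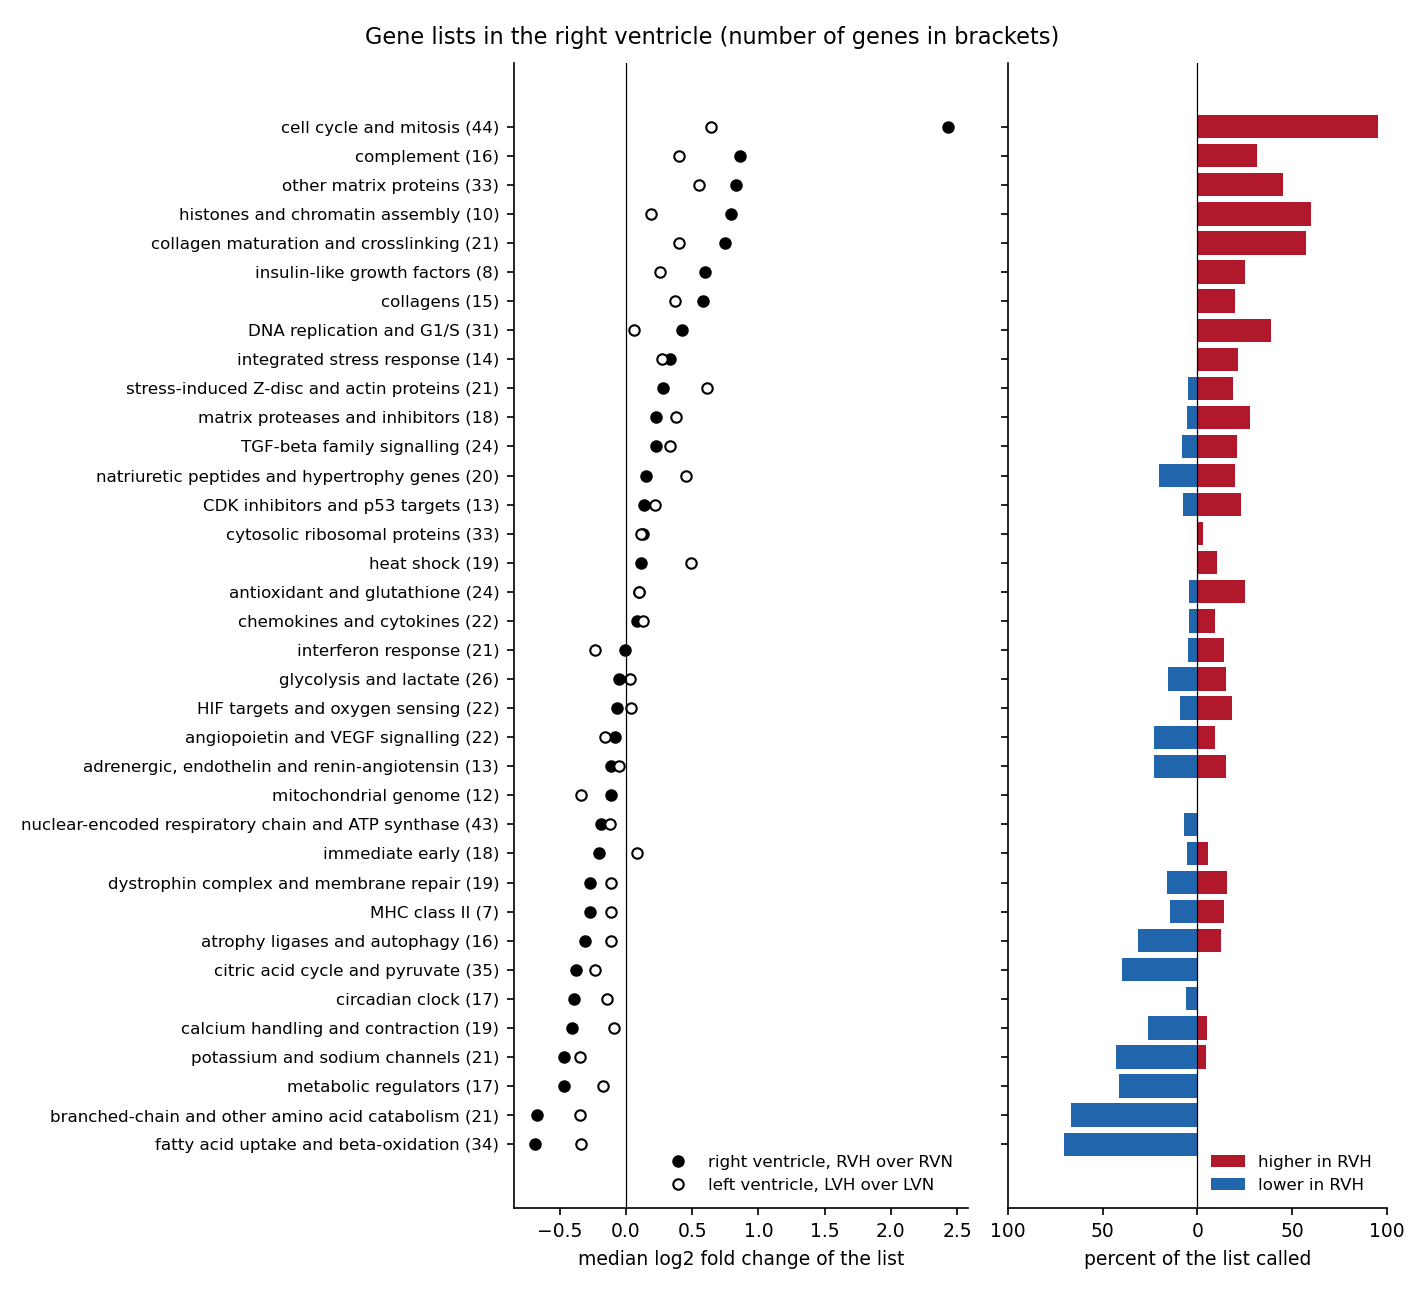
Left, median log2 fold change of the members of each list in the right ventricle (filled, RVH over RVN) and in the left (open, LVH over LVN); right, percent of the members that were higher (red) or lower (blue) in RVH by the edgeR test, with the number of members in brackets. The list of cell cycle and mitosis has 42 of 44 members higher and none lower (26 of the 44 reached 1 TPM in no RVN library), and fatty acid uptake and beta-oxidation has 24 of 34 members lower and none higher.

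Most genes of cell cycle and mitosis that could be tested were higher in RVH. These genes encode the kinases, spindle proteins and kinetochore proteins that take a cell through division. Of its 59 genes that could be tested, 52 were higher in RVH and none was lower, with a median log2 fold change of 2.45. In 58 every RVH library lay above every RVN library, against 21.5% of all genes tested. Over the 44 members described the median was 2.43, and it ran between 1.21 (limma on log2(TPM + 1)) and 2.68 (without RVN replicate 2) over the alternative fits. Over the 44 members 42 were higher, but 26 of these 44 reached 1 TPM in no RVN library and so entered through the group in which they are high. Of the 18 that reached 1 TPM in at least 1 library of each group, 16 were higher. With no filter on low counts, 50 of the 59 genes were higher and none was lower. Levels were low in normoxia: summed over the list, RVH libraries held 161 to 238 TPM and RVN libraries 48.1 to 59.2 TPM. Without RVH replicate 4, 41 of the 44 members were higher, and without RVH replicate 1, RVH replicate 2, RVN replicate 1, RVN replicate 2 or RVN replicate 3 the counts were 32, 23, 22, 35 and 24. None of the 44 was called in the LV, where their median log2 fold change was 0.64.

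Single genes are given with their level in each library. They were picked by largest rise without overlap or by smallest adjusted p, which favours little spread within a group. Cdk1, the kinase that drives entry into mitosis, was at 10.4, 12.9 and 10.1 TPM in RVH, against 0.775, 1.76 and 1.07 TPM in RVN (3.10 ± 0.46, adjusted p = 0.00484). Pbk, a mitotic kinase, was at 3.12, 3.06 and 2.76 TPM in RVH, against 0.353, 0.478 and 0.512 TPM in RVN (2.62 ± 0.31, adjusted p = 0.00293). Aurkb, the kinase of the chromosomal passenger complex, was at 2.73, 4.22 and 2.79 TPM in RVH, against 0.834, 1.08 and 1.03 TPM in RVN (1.60 ± 0.22, adjusted p = 0.00376). In these kinases RVH replicate 4 lay beside replicates 1 and 2, unlike in the genes of the matrix below. Prc1, which bundles the microtubules of the spindle midzone, was at 7.04, 10.0 and 6.43 TPM in RVH, against 0.486, 1.11 and 0.861 TPM in RVN (3.14 ± 0.49, adjusted p = 0.00549). Pttg1, the securin that holds back the separation of chromosomes, was at 3.66, 5.02 and 3.64 TPM in RVH, against 0.475, 0.772 and 0.589 TPM in RVN (2.60 ± 0.39, adjusted p = 0.00501). Cdca3, a trigger of mitotic entry, was at 3.13, 5.997 and 2.85 TPM in RVH, against 0.266, 0.550 and 0.641 TPM in RVN (2.83 ± 0.43, adjusted p = 0.00501). Cdkn3, which is outside the list, a phosphatase that acts on cyclin-dependent kinases, was at 7.09, 9.70 and 5.02 TPM in RVH, against 0.561, 1.23 and 0.423 TPM in RVN (3.25 ± 0.52, adjusted p = 0.00569). No overlap was seen for any of the 7 genes, which was a condition for the choice of Cdk1, Prc1 and Cdkn3. Each call held in every alternative fit.

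Promoters are shown for 4 of these genes because mitotic genes that move together are known for CCAAT boxes and for the cell cycle homology region near their start sites. The sequences run from 250 bases before to 50 after the RefSeq start (rat build GRCr8), 5′ to 3′ in the direction of the gene, and capitals mark CCAAT or its reverse complement ATTGG and TTTGAA or its reverse complement TTCAAA. The windows lie at chr20:19265043-19265342 on the plus strand for Cdk1, chr4:159320953-159321252 plus for Cdca3, chr10:28406277-28406576 minus for Pttg1 and chr1:143659231-143659530 plus for Prc1.
Cdk1: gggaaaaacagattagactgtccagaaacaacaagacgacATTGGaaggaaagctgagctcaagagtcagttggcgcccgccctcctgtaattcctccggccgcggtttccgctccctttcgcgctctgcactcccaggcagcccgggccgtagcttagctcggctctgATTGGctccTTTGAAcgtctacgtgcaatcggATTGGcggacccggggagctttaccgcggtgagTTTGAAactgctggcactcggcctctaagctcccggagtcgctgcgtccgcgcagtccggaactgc
Cdca3: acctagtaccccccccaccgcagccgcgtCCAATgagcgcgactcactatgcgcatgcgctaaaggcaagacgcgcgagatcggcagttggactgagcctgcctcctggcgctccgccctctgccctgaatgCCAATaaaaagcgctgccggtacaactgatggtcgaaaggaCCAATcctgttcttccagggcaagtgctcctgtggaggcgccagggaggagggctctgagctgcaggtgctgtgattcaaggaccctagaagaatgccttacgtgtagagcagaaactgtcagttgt
Pttg1: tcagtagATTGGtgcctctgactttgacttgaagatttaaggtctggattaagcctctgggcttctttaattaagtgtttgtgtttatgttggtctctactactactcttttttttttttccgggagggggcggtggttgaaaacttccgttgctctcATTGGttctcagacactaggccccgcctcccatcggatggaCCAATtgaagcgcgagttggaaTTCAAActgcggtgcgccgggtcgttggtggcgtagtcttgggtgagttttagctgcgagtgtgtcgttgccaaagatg
Prc1: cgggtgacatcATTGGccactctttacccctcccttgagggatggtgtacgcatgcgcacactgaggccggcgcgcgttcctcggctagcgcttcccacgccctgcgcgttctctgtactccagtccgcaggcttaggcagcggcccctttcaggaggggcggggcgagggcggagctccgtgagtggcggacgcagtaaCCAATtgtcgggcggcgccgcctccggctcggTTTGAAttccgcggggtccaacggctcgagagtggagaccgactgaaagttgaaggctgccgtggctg
CCAAT or ATTGG occurs 3 times in the windows of Cdk1, Cdca3 and Pttg1 and 2 times in that of Prc1, where 37.5% of the 33469 windows of 300 bases in the table hold it at least once. TTTGAA or TTCAAA occurs 2 times for Cdk1, 1 time for Pttg1 and for Prc1 and not for Cdca3, where 18.3% of all windows hold it. The letter strings do not overlap each other, and a match describes the letters only. Pbk and Aurkb are named without a sequence. Of the 44 members 35 (79.5%) had a window, too few for a share over the list.

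Genes of DNA replication and chromatin were called in smaller shares. Of the 31 members of the list of DNA replication and the start of S phase, 12 were higher and none lower (median 0.42), and 3 of the 31 reached 1 TPM in no RVN library. Of the 28 others 9 were higher. Of 39 genes tested 14 were higher. Mcm3 and Mcm5, subunits of the replicative helicase, had log2 fold changes of 1.35 ± 0.24 (adjusted p = 0.00706) and 0.96 ± 0.15 (adjusted p = 0.00506). Mcm5 was at 3.10, 3.52 and 3.75 TPM in RVH, against 1.49, 1.60 and 1.82 TPM in RVN, with replicate 4 the highest of the hypoxic libraries. Rrm2, the regulated subunit of ribonucleotide reductase, was at 1.98, 4.30 and 1.39 TPM in RVH, against 0.191, 0.108 and 0.522 TPM in RVN (2.94 ± 0.53, adjusted p = 0.00742). Tk1, the thymidine kinase of S phase, was at 4.04, 4.43 and 4.54 TPM in RVH, against 2.26, 2.20 and 2.02 TPM in RVN (0.90 ± 0.14, adjusted p = 0.00506). The groups did not overlap for Mcm5, Rrm2 or Tk1. The count of 12 was 10 without RVH replicate 4, and 6, 8 and 8 without RVH replicate 2, RVN replicate 1 and RVN replicate 3.

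Among 10 members of the list of histones and chromatin assembly, 6 were higher and none lower (median 0.79). Asf1b reached 1 TPM in no RVN library, and of the 9 others 5 were higher. Of the 10, 4 to 6 were called with any 1 RV library left out. Hmgb2, a chromatin protein of dividing cells, was at 23.3, 37.1 and 28.9 TPM in RVH, against 12.5, 15.4 and 12.2 TPM in RVN (1.04 ± 0.16, adjusted p = 0.00501). Lmnb1, a lamin of the nuclear envelope, was at 3.49, 4.49 and 4.56 TPM in RVH, against 1.46, 1.94 and 1.82 TPM in RVN (1.15 ± 0.20, adjusted p = 0.00656). The histone chaperone Asf1b had a log2 fold change of 1.46 ± 0.23 (adjusted p = 0.00569) and the histone variant gene H2afz one of 0.67 ± 0.11 (adjusted p = 0.00638). All 3 hypoxic libraries lay above all 3 normoxic ones for Hmgb2 and Lmnb1.

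Inhibitors of the cell cycle and targets of p53 gave a mixed list, with 3 of 13 members higher and 1 lower (median 0.14). The counts were the same without RVH replicate 4, and 2 and 0 without any 1 of the other RV libraries. Cdkn2c, an inhibitor of the kinases that start the cycle, was at 9.71, 10.5 and 6.72 TPM in RVH, against 3.29, 3.31 and 2.69 TPM in RVN (1.41 ± 0.22, adjusted p = 0.00506). Bax, which opens the outer mitochondrial membrane in cell death, was at 24.4, 26.9 and 19.8 TPM in RVH, against 12.3, 14.8 and 13.8 TPM in RVN (0.67 ± 0.11, adjusted p = 0.00569). Neither gene overlapped between the groups.

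In the 3 lists of matrix structure every called gene was higher, and RVH replicate 4 lay nearer to RVN. Of the 15 collagen genes described, 3 were higher and none lower (median 0.58); of 21 genes of collagen maturation and crosslinking, 12 were higher and none lower (median 0.75); and of 33 other matrix proteins, 15 were higher and none lower (median 0.83). In the last list Thbs4 reached 1 TPM in no RVN library, and of the 32 others 14 were higher. Per library, the list median of log2(TPM + 0.5) above the RVN mean was 0.94, 1.19 and 0.35 for collagen maturation and 1.06, 1.21 and 0.27 for the other matrix proteins in RVH replicates 1, 2 and 4. Without replicate 4 the counts of higher genes in the 3 lists were 7, 13 and 20. Without RVH replicate 1, RVH replicate 2, RVN replicate 1 or RVN replicate 3 they were 1 for collagens, 3 to 4 for maturation and 3 to 5 for other matrix proteins, and without RVN replicate 2 they were 2, 11 and 9, so the number of calls rests on those libraries. With library totals 9 genes of collagen maturation and 9 of the other matrix proteins were higher. The 3 medians stayed between 0.51 and 1.00 in every fit.

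Among the collagens, Col4a1, of the basement membrane, was at 94.2, 116 and 88.4 TPM in RVH, against 56.8, 46.8 and 41.1 TPM in RVN (0.92 ± 0.17, adjusted p = 0.00884), and this call held in every alternative fit. The fibrillar Col3a1 was at 534, 739 and 263 TPM in RVH, against 177, 219 and 166 TPM in RVN (1.30 ± 0.30, adjusted p = 0.0186). Col1a1, the main collagen of scars, was at 101, 136 and 48.9 TPM in RVH and 41.2, 52.3 and 36.9 TPM in RVN (0.97 ± 0.32, adjusted p = 0.0618). Replicate 4 overlapped RVN for Col1a1, which did not pass the test, and lay just above it for Col3a1, whose call was lost without RVH replicate 1 or 2 or RVN replicate 1 or 3 (adjusted p up to 0.0821).

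Of the proteins that fold and crosslink collagen, Serpinh1, the collagen chaperone, was at 243, 315 and 178 TPM in RVH, against 109, 118 and 106 TPM in RVN (1.01 ± 0.19, adjusted p = 0.00966). Tgm2, a tissue transglutaminase, was at 121, 211 and 88.96 TPM in RVH, against 51.0, 46.5 and 55.2 TPM in RVN (1.31 ± 0.22, adjusted p = 0.00638). Loxl1, a lysyl oxidase that crosslinks elastin, was at 42.7, 53.7 and 18.8 TPM in RVH, against 8.82, 9.83 and 11.2 TPM in RVN (1.79 ± 0.39, adjusted p = 0.0149). All 3 were without overlap, with RVH replicate 4 the lowest hypoxic library, and only the call of Loxl1 among them was lost in leaving out a library (RVH replicate 1 or 2 or RVN replicate 1, adjusted p up to 0.0672). Sparc, a collagen-binding matricellular protein, was at 1066, 1378 and 772 TPM in RVH, against 515, 535 and 449 TPM in RVN (0.96 ± 0.16, adjusted p = 0.00597). Spp1, the matricellular protein osteopontin, was at 16.8, 26.5 and 7.28 TPM in RVH, against 3.66, 3.13 and 3.84 TPM in RVN (2.08 ± 0.40, adjusted p = 0.00966). Sparc and Spp1 kept their calls in every alternative fit.

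Of 18 proteases of the matrix and their inhibitors 5 were higher and 1 lower (median 0.23), and 2 and 1 with library totals. Without RVH replicate 4 the counts were 7 and 1, without RVN replicate 2 they were 3 and 1, and without any 1 of the other RV libraries at most 1 gene was higher and none lower. Timp1, an inhibitor of matrix metalloproteinases, was at 70.97, 82.5 and 34.2 TPM in RVH, against 15.3, 26.3 and 17.8 TPM in RVN (1.52 ± 0.34, adjusted p = 0.0175), and its relative Timp4 was at 9.12, 9.21 and 16.6 TPM in RVH, against 30.2, 19.3 and 24.5 TPM in RVN (-1.17 ± 0.32, adjusted p = 0.0325). The 2 inhibitors went in opposite directions, without overlap. Either call was lost without RVH replicate 1 or 2 or RVN replicate 1 or 3, and that of Timp4 also in the 6 RV libraries alone (adjusted p up to 0.0793 for Timp1 and 0.127 for Timp4).

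Markers of fibroblasts were read beside these lists. Of 11 members of the list of activated fibroblast markers 8 were higher and none lower (median 1.73), and their sum was 221 to 589 TPM in RVH and 173 to 219 TPM in RVN. Of these 11, 2 reached 1 TPM in no RVN library, Thbs4 and Ltbp2, and of the 9 others 6 were higher. Of 13 fibroblast markers 7 were higher and 1, Gsn, was lower (median 0.86), and their sums of 1712 to 3024 TPM in RVH and 1895 to 2249 TPM in RVN overlapped. The 8 higher genes of the first list include Thbs4 and Cilp, which stand in the matrix list too. Without RVH replicate 4 the counts higher in the activated and the general list were 8 and 8, without RVN replicate 2 they were 4 and 5, and without any 1 of the other RV libraries 1 to 3 and 0 to 1. With library totals they were 5 and 4. The part of these cells in the matrix result was not tested. Fap, a membrane protease of activated fibroblasts, was at 5.10, 8.46 and 4.98 TPM in RVH, against 2.13, 2.74 and 1.98 TPM in RVN (1.32 ± 0.27, adjusted p = 0.0117). The groups did not overlap for Fap, and its call was lost without RVH replicate 2, RVN replicate 1 or RVN replicate 3 (adjusted p up to 0.0551). Of 14 markers of smooth muscle and pericytes 1 was higher and 1 lower (2 and 2 without RVH replicate 4), and none of 8 epicardial markers was called.

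**Figure D4:**
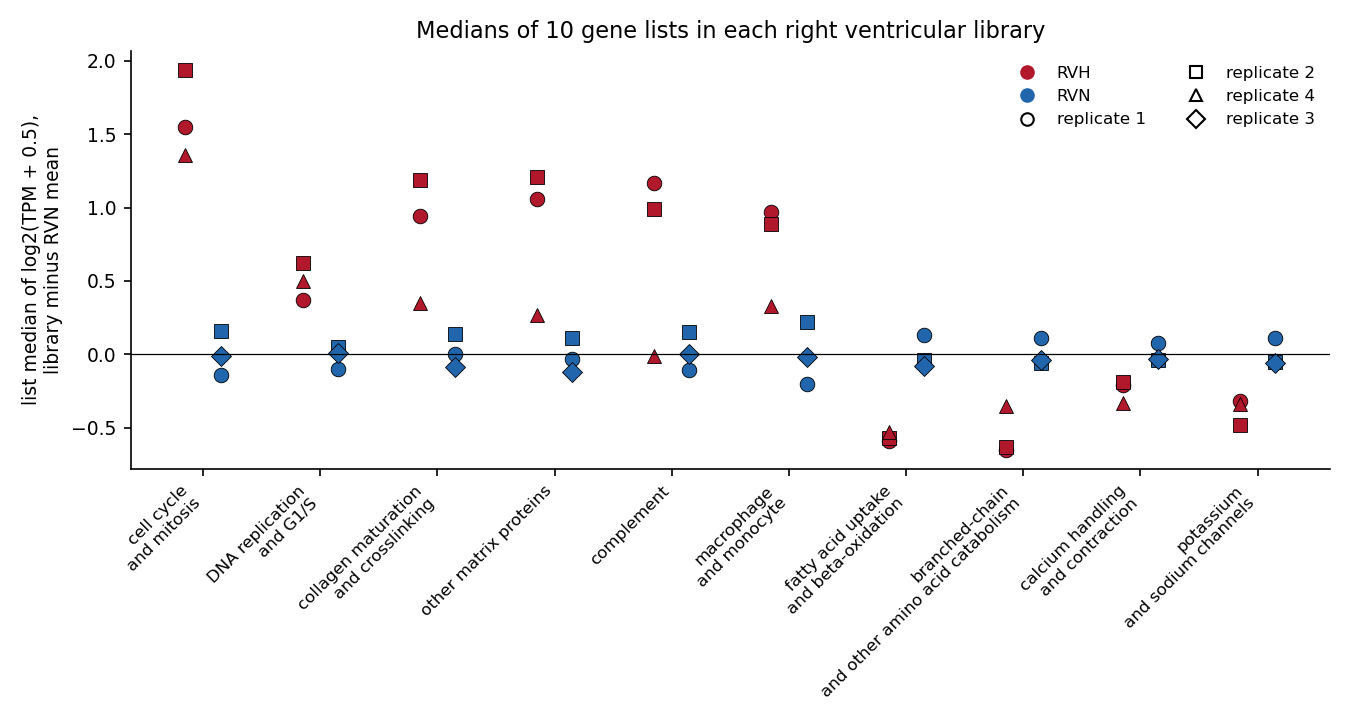
Median over the members of each list of log2(TPM + 0.5) in a library minus the mean of the RVN libraries, for 10 lists; each symbol is 1 RV library, RVH in red and RVN in blue, and its shape gives the replicate number (a triangle is replicate 4). For cell cycle and mitosis the RVH libraries stand at 1.55, 1.94 and 1.36, for fatty acid uptake and beta-oxidation at -0.59, -0.57 and -0.53, and for the other matrix proteins at 1.06, 1.21 and 0.27 (replicates 1, 2 and 4). The TMM factors are not applied to these values.

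Growth factors that act on fibroblasts and muscle were mixed. In the TGF-beta family list 5 of 24 members were higher and 2 lower (median 0.23), and Inha, given above, was the member with the smallest adjusted p. Of the 5, Ltbp2, a matrix protein related to the TGF-beta binding proteins, reached 1 TPM in no RVN library, and of the 23 others 4 were higher and 2 lower. Without RVH replicate 4 the counts were 8 and 2, and without RVH replicate 1 or 2 they were 1 and 0, without RVN replicate 1 they were 1 and 1, without RVN replicate 3 they were 2 and 1, and without RVN replicate 2 they were 4 and 0. Fstl1, a follistatin-like secreted protein, was at 123, 143 and 66.1 TPM in RVH, against 37.4, 47.6 and 34.3 TPM in RVN (1.33 ± 0.33, adjusted p = 0.0230). Cyr61, a matricellular target of stretch signals, was at 11.7, 14.01 and 8.74 TPM in RVH, against 13.95, 34.1 and 32.7 TPM in RVN (-1.36 ± 0.38, adjusted p = 0.0349). Fstl1 did not overlap between the groups, while for Cyr61 RVH replicate 2 and RVN replicate 1 were level. Tgfb2 (1.09 ± 0.36, adjusted p = 0.0634) and Ctgf (0.85 ± 0.31, adjusted p = 0.0879), a further matricellular target of this pathway, did not pass the test. Igf1, the insulin-like growth factor, was at 25.9, 29.4 and 12.8 TPM in RVH, against 12.3, 8.66 and 7.49 TPM in RVN (1.11 ± 0.28, adjusted p = 0.0257). Of 8 genes of that axis 2 were higher and none lower (median 0.60), with 4 without RVH replicate 4, 1 without RVN replicate 1 or 2, and none without RVH replicate 1, RVH replicate 2 or RVN replicate 3. Leaving out RVH replicate 1 or 2 ended the calls of Fstl1, Cyr61 and Igf1, as did RVN replicate 3. RVN replicate 1 ended that of Fstl1, RVN replicate 2 those of Igf1 and Cyr61, and RVH replicate 4 that of Cyr61 (adjusted p up to 0.0925, 0.11 and 0.106 for Fstl1, Cyr61 and Igf1). Cyr61 also lost its call with library totals and with limma.

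Genes of fatty acid uptake and beta-oxidation fell together. This pathway brings fatty acids into mitochondria and cuts them to acetyl-CoA, the main fuel of the adult heart. Of its 34 members 24 were lower in RVH and none was higher (median -0.69). In 27 every RVH library lay below every RVN library, against 14.0% of all genes described. The medians of the single RVH libraries, in log2(TPM + 0.5) without the TMM factors, were -0.59, -0.57 and -0.53. On that scale RVH replicate 4 did not stand apart, while the median fold change of the TMM fit was -0.78 without it. The count was 29 without that replicate and 16, 15, 14, 22 and 20 without RVH replicate 1, RVH replicate 2, RVN replicate 1, RVN replicate 2 and RVN replicate 3, with medians from -0.79 to -0.58 over all fits. None of the 34 was called in the LV, where the median was -0.34.

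Acsl1, which activates long-chain fatty acids, was at 175, 182 and 185 TPM in RVH, against 335, 283 and 289 TPM in RVN (-0.85 ± 0.11, adjusted p = 0.00342). Hadha, a subunit of the trifunctional protein of beta-oxidation, was at 166, 157 and 184 TPM in RVH, against 333, 292 and 291 TPM in RVN (-0.96 ± 0.14, adjusted p = 0.00442). Acad10, an acyl-CoA dehydrogenase, was at 19.01, 18.1 and 22.6 TPM in RVH, against 42.6, 39.0 and 38.7 TPM in RVN (-1.12 ± 0.15, adjusted p = 0.00347). In TPM the hypoxic libraries of these genes lay close together and clear of the normoxic ones. Acad11, of the same family, fell by 1.02 on the log2 scale (SE 0.15, adjusted p = 0.0043), and Etfdh, which passes the electrons of beta-oxidation to ubiquinone, fell by 0.68 (SE 0.11, adjusted p = 0.00588). The calls of all 5 genes held in every alternative fit.

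Other mitochondrial pathways differed in their share of lower genes. In branched-chain and other amino acid catabolism 14 of 21 members were lower and none higher (median -0.67), in the citric acid cycle and pyruvate list 14 of 35 were lower and none higher (median -0.38), and in the nuclear-encoded respiratory chain 3 of 43 were lower and none higher (median -0.19). The share of the respiratory chain called lower lies below the 8.45% of all genes described. In 13 of its 43 members every RVH library lay below every RVN library, against 14.0% of all genes described. In 1 every RVH library lay above, against 21.9%. The counts lower were 19, 23 and 15 without RVH replicate 4, and without RVN replicate 2 they were 12, 9 and 1. Without RVH replicate 1, RVH replicate 2, RVN replicate 1 or RVN replicate 3 they were 3 to 7 in amino acid catabolism, 2 to 5 in the citric acid cycle and 0 in the respiratory chain. None of the 12 genes of the mitochondrial genome was called (median -0.11), 1 was lower without RVH replicate 4 and 2 with library totals, and the mitochondrial share of the libraries given above moved in the same direction. That share's part in these results was not tested.

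Pccb, a subunit of propionyl-CoA carboxylase, was at 48.4, 47.8 and 57.5 TPM in RVH, against 90.8, 87.4 and 88.95 TPM in RVN (-0.90 ± 0.14, adjusted p = 0.00506). Bckdk, the kinase that shuts off branched-chain ketoacid breakdown, was at 65.1, 63.8 and 68.98 TPM in RVH, against 108, 96.3 and 94.8 TPM in RVN (-0.70 ± 0.11, adjusted p = 0.00569). Bckdk acts against the pathway whose list it stands in, and fell with it. Pdp2, the phosphatase that activates pyruvate dehydrogenase, was at 4.66, 7.18 and 8.30 TPM in RVH, against 16.03, 18.2 and 13.4 TPM in RVN (-1.34 ± 0.23, adjusted p = 0.00699). Me3, a mitochondrial malic enzyme, was at 43.9, 40.6 and 49.01 TPM in RVH, against 72.9, 65.95 and 69.8 TPM in RVN (-0.75 ± 0.13, adjusted p = 0.00734). The groups did not overlap for any of these 4 genes.

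Of 17 regulators of metabolism 7 were lower and none higher (median -0.47), with 2 lower under library totals, 10 without RVH replicate 4, 5 without RVN replicate 2 and 1 to 2 without RVH replicate 1, RVH replicate 2, RVN replicate 1 or RVN replicate 3. Lpin1, a phosphatidate phosphatase and coactivator of fatty acid genes, was at 8.99, 7.26 and 10.3 TPM in RVH, against 23.1, 21.2 and 20.3 TPM in RVN (-1.38 ± 0.23, adjusted p = 0.00643). Ppargc1a, the coactivator PGC-1alpha of mitochondrial genes, was at 6.13, 6.34 and 7.75 TPM in RVH, against 12.5, 8.67 and 12.04 TPM in RVN (-0.83 ± 0.23, adjusted p = 0.0349). The groups were apart for both genes. The call of Lpin1 held throughout, and that of Ppargc1a was lost without RVH replicate 1 or 2, RVN replicate 1 or 3 or LVN replicate 1, with library totals and with limma (adjusted p up to 0.14).

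Glycolysis showed no single direction. Of 26 members 4 were higher and 4 lower, with a median of -0.05 that turned to 0.05 with library totals. Slc16a3, a lactate transporter among the higher genes, reached 1 TPM in no RVN library, and of the 25 others 3 were higher and 4 lower. Without RVH replicate 4 the counts were 4 and 7, and without RVH replicate 1, RVH replicate 2, RVN replicate 1 or RVN replicate 3 none was lower and 2 to 3 were higher. Ldha, which makes lactate from pyruvate, was at 940, 1193 and 953 TPM in RVH, against 665, 596 and 626 TPM in RVN (0.59 ± 0.10, adjusted p = 0.00706). The isoforms of phosphofructokinase, the enzyme of the committed step, went apart. Pfkp, the platelet form, was at 18.4, 31.6 and 13.2 TPM in RVH, against 9.73, 7.85 and 10.2 TPM in RVN (1.03 ± 0.21, adjusted p = 0.0110), and Pfkm, the muscle form, was at 156, 142 and 200 TPM in RVH, against 272, 257 and 268 TPM in RVN (-0.77 ± 0.17, adjusted p = 0.0155). Neither isoform overlapped between the groups, and the fall of Pfkm lost its call without RVH replicate 1 or 2 or RVN replicate 1 or 3 (adjusted p up to 0.0654).

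Hypoxia-inducible factors (HIF) are stabilised when oxygen is short. The list of HIF targets and genes of oxygen sensing had calls in both directions after 2 weeks. Its 2 lower genes were Epas1, given below, and Hif1an (-0.71 ± 0.17, adjusted p = 0.0228). Of 22 members 4 were higher and 2 lower, with a median of -0.07 (0.05 with library totals), and with any 1 RV library left out 2 to 5 were higher and 0 to 3 lower. In 10 of the 22 every RVH library lay above every RVN library, against 21.9% of all genes described. In 3 every RVH library lay below, against 14.0%. Bnip3, a HIF target that marks mitochondria for removal, was at 231, 220 and 198 TPM in RVH, against 130, 116 and 119 TPM in RVN (0.71 ± 0.14, adjusted p = 0.0103). Edn1, the vasoconstrictor endothelin, was at 3.11, 2.83 and 2.51 TPM in RVH, against 1.69, 1.61 and 1.34 TPM in RVN (0.74 ± 0.17, adjusted p = 0.0175). Epas1, which encodes the oxygen-regulated subunit HIF-2alpha, was at 55.1, 56.3 and 59.99 TPM in RVH, against 80.7, 98.5 and 80.1 TPM in RVN (-0.71 ± 0.15, adjusted p = 0.0120). In TPM the hypoxic libraries of Epas1 lay close to each other and clear of RVN. The calls of Edn1 (without RVH replicate 1 or RVN replicate 3, adjusted p up to 0.0716) and Epas1 (without RVH replicate 1 or 2, up to 0.0594) each rested on a pair of libraries.

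Among factors that build and hold vessels, Angpt1, the ligand that keeps vessels stable through the Tek receptor, was at 5.41, 4.76 and 5.34 TPM in RVH, against 16.97, 21.6 and 18.8 TPM in RVN (-1.997 ± 0.32, adjusted p = 0.00569). All 3 hypoxic libraries lay below the lowest normoxic one by a wide margin. Of the 22 members of the angiopoietin and VEGF list 2 were higher and 5 lower, with a median of -0.08 (0.03 with library totals), and with any 1 RV library left out 1 to 2 were higher and 3 to 6 lower. Nrp1, a co-receptor of VEGF, was at 20.7, 26.3 and 20.6 TPM in RVH, against 33.4, 31.4 and 31.8 TPM in RVN (-0.64 ± 0.09, adjusted p = 0.00439). Apln, the peptide apelin, was at 5.30, 3.75 and 5.98 TPM in RVH, against 10.7, 10.1 and 10.7 TPM in RVN (-1.17 ± 0.24, adjusted p = 0.0110), and its receptor Aplnr was at 23.99, 32.2 and 22.9 TPM in RVH, against 14.3, 16.04 and 13.1 TPM in RVN (0.74 ± 0.14, adjusted p = 0.00909). Ligand and receptor thus went in opposite directions, and both calls held in every alternative fit. Endothelial markers gave 2 higher and 3 lower of 16 (median 0.14), 1 and 3 without RVH replicate 4 and 1 to 2 and 1 to 3 with any 1 RV library left out, and summed to 442 to 512 TPM in RVH and 363 to 434 TPM in RVN. Apln and Aplnr stand in both lists, and the part of endothelial cells in the vessel genes was not tested.

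Of 21 potassium and sodium channel genes 9 were lower and 1 higher (median -0.47). The higher one, the sodium channel subunit gene Scn3b, reached 1 TPM in no RVN library, and of the 20 others 9 were lower and none higher. The count lower was 9 without RVH replicate 4, 7 without RVN replicate 2 and 3 to 4 without RVH replicate 1, RVH replicate 2, RVN replicate 1 or RVN replicate 3. Scn4b, a beta subunit of the cardiac sodium channel, was at 8.79, 6.85 and 12.9 TPM in RVH, against 44.3, 38.2 and 29.04 TPM in RVN (-2.06 ± 0.33, adjusted p = 0.00569). Kcnk2, a stretch-sensitive background potassium channel outside the list, was at 1.74, 2.53 and 4.29 TPM in RVH, against 11.6, 10.4 and 10.7 TPM in RVN (-2.03 ± 0.32, adjusted p = 0.0052). Kcna2, a voltage-gated potassium channel, was at 2.36, 1.54 and 2.88 TPM in RVH, against 6.39, 5.40 and 6.61 TPM in RVN (-1.55 ± 0.28, adjusted p = 0.00792). In Scn4b, Kcnk2 and Kcna2 RVH replicate 4 was the hypoxic library nearest to RVN. None of them overlapped, which for Scn4b and Kcnk2 was a condition of their choice.

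Of 19 genes of calcium handling and contraction 5 were lower and 1 higher (median -0.41). Atp2a2, the calcium pump SERCA2 of the sarcoplasmic reticulum, was at 1149, 985 and 1400 TPM in RVH, against 2086, 1996 and 1905 TPM in RVN (-0.86 ± 0.18, adjusted p = 0.0120), and its call was lost without RVH replicate 1 (adjusted p = 0.0502). Jph2, which ties the surface membrane to the reticulum, was at 66.7, 57.9 and 47.9 TPM in RVH, against 93.2, 79.1 and 80.9 TPM in RVN (-0.68 ± 0.11, adjusted p = 0.00638). Calr, a calcium-binding chaperone of the endoplasmic reticulum, was the member that rose (0.48 ± 0.10, adjusted p = 0.0139), a call lost without RVH replicate 1 or 2 or RVN replicate 1 or 3 (adjusted p up to 0.063). For Atp2a2 and Jph2 the groups did not overlap, and replicate 4 was the highest hypoxic library for Atp2a2 and the lowest for Jph2. The count of 5 lower genes was 1 without RVH replicate 1, 2 without RVH replicate 2, RVN replicate 1 or RVN replicate 3, and 6 without RVH replicate 4.

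Of 17 markers of ventricular myocytes 4 were lower and none higher (median -0.33, and -0.21 with library totals), and without RVH replicate 4 the count was 8, while without RVH replicate 1 it was 0 and without RVH replicate 2 or any 1 RVN library it was 1. Myh6, the fast alpha myosin heavy chain of the adult rodent heart, was at 879, 585 and 1111 TPM in RVH, against 2402, 2451 and 1679 TPM in RVN (-1.43 ± 0.38, adjusted p = 0.0301). The groups were apart, but the call was lost when RVH replicate 1 or 2 or any 1 RVN library was left out (adjusted p up to 0.115). The summed level of the marker list is given above for each group, and its part in the falls of myocyte genes was not tested.

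Genes of hypertrophy beyond Nppa were mixed, with 4 of 20 members higher and 4 lower (median 0.15). Tgm1, a transglutaminase among the higher genes, reached 1 TPM in no RVN library, and of the 19 others 3 were higher and 4 lower. With library totals 5 were higher and 1 lower, and with any 1 RV library left out 3 to 4 were higher and 1 to 5 lower. Nppb, the precursor of B-type natriuretic peptide, was at 238, 310 and 367 TPM in RVH, against 154, 41.04 and 89.2 TPM in RVN (1.58 ± 0.43, adjusted p = 0.0343). The normoxic libraries of Nppb spread widely, and its call was lost with a block by replicate number, in the 6 RV libraries alone, and without RVH replicate 1, 2 or 4, RVN replicate 2 or 3 or LVN replicate 1 (adjusted p up to 0.116). Enah, an actin-elongation protein of the intercalated disc, was at 51.2, 54.6 and 37.9 TPM in RVH, against 23.7, 20.3 and 24.8 TPM in RVN (0.93 ± 0.18, adjusted p = 0.0104). Pdlim5, a LIM protein of the Z-disc in the list of stress-induced Z-disc and actin proteins (4 of 21 members higher and 1 lower, median 0.28; 4 and 3 without RVH replicate 4, and 2 to 4 and 0 to 1 without any 1 of the other RV libraries), was at 138, 172 and 153 TPM in RVH, against 94.2, 81.97 and 98.3 TPM in RVN (0.63 ± 0.11, adjusted p = 0.00712). Neither Enah nor Pdlim5 overlapped, and both calls held in every alternative fit. Among receptors of stress hormones, Adra1b, an alpha-1 adrenergic receptor of myocytes, was at 16.6, 13.4 and 15.98 TPM in RVH, against 30.95, 27.3 and 29.4 TPM in RVN (-1.04 ± 0.16, adjusted p = 0.00506). Adra1d, of the same class, was at 1.32, 1.14 and 1.30 TPM in RVH, against 4.44, 3.23 and 3.20 TPM in RVN (-1.65 ± 0.27, adjusted p = 0.00605). In both receptors the hypoxic libraries were far below the normoxic ones.

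Several genes of muscle breakdown were lower. Of 16 genes of atrophy and autophagy 5 were lower and 2 higher (median -0.31), with 4 to 5 lower and 1 to 2 higher when any 1 RV library was left out. Fbxo32, the ubiquitin ligase atrogin-1, was at 15.7, 15.7 and 15.97 TPM in RVH, against 27.6, 23.3 and 30.2 TPM in RVN (-0.89 ± 0.15, adjusted p = 0.00605). Fbxo40, a muscle F-box protein, was at 23.7, 24.7 and 25.2 TPM in RVH, against 40.97, 37.1 and 36.9 TPM in RVN (-0.76 ± 0.11, adjusted p = 0.0043). Foxo1, a transcription factor that switches on such ligases, was at 4.22, 4.25 and 3.77 TPM in RVH, against 7.01, 5.95 and 6.94 TPM in RVN (-0.83 ± 0.11, adjusted p = 0.0037). In TPM, without the TMM factors, the hypoxic libraries of these genes were nearly level with each other, replicate 4 included. Without that replicate the fitted log2 fold changes of Fbxo32, Fbxo40 and Foxo1 were -0.98, -0.86 and -0.85.

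Genes that answer to stress were called in small numbers. Of 24 antioxidant genes 6 were higher and 1 lower (median 0.10), with Gpx1 among the higher. The counts were 5 and 5 without RVH replicate 4, and without RVH replicate 1, RVH replicate 2, RVN replicate 1 or RVN replicate 3 they were 3 and 0. Gclc, the rate-limiting enzyme of glutathione synthesis, was at 7.46, 8.71 and 5.92 TPM in RVH, against 3.75, 4.27 and 4.37 TPM in RVN (0.70 ± 0.11, adjusted p = 0.00506). Of 19 heat shock genes 2 were higher and none lower (median 0.11), with 1 to 2 higher when any 1 RV library was left out, among them Hsp90aa1, the inducible form of the chaperone HSP90, at 178, 162 and 109 TPM in RVH, against 65.6, 60.4 and 69.9 TPM in RVN (1.06 ± 0.19, adjusted p = 0.00725). Of 14 genes of the integrated stress response 3 were higher and none lower (median 0.33), with 1 to 4 higher when any 1 RV library was left out. Mthfd2, a mitochondrial folate enzyme of that response, was at 5.63, 6.06 and 3.04 TPM in RVH, against 1.43, 2.11 and 2.12 TPM in RVN (1.24 ± 0.22, adjusted p = 0.00699). The groups did not overlap for Gclc, Hsp90aa1 or Mthfd2. Of 18 immediate early genes 1 was higher and 1 lower: Myc, the growth-promoting transcription factor, was at 5.40, 5.63 and 3.62 TPM in RVH, against 2.08, 1.996 and 2.72 TPM in RVN (0.96 ± 0.16, adjusted p = 0.00678). The lower one was Dusp1, a phosphatase of MAP kinases, at 42.8, 34.8 and 31.1 TPM in RVH, against 51.03, 113 and 70.9 TPM in RVN (-1.23 ± 0.27, adjusted p = 0.0143), a call lost without RVH replicate 2 (adjusted p = 0.0714). The list had a median of -0.20, and its transcription factors Fos (-2.03 ± 0.72, adjusted p = 0.0820) and Egr1 (-1.60 ± 0.51, adjusted p = 0.0585) did not pass the test, though every RVH library of both lay below every RVN library. Without RVH replicate 4 the counts were 2 and 1.

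Some markers of innate immune cells were higher, with calls that rested on several libraries. Of 20 markers of macrophages and monocytes 8 were higher and none lower (median 0.66), and they summed to 396 to 681 TPM in RVH and 251 to 350 TPM in RVN. Of 16 complement genes 5 were higher and none lower (median 0.86), of which C3ar1 reached 1 TPM in no RVN library and 4 of the 15 others were higher, and the median of RVH replicate 4 alone was -0.01. Without that replicate 10 macrophage markers and 11 complement genes were higher, without RVN replicate 2 the numbers were 4 and 1, and with library totals 3 and 2. Without RVH replicate 1, RVH replicate 2 or RVN replicate 3 none of either list was, and without RVN replicate 1 none of the markers and 1 complement gene was. Lyz2, the lysozyme of macrophages, was at 237, 230 and 136 TPM in RVH, against 79.4, 113 and 90.2 TPM in RVN (0.96 ± 0.25, adjusted p = 0.0286), a call lost without RVH replicate 1 or 2 or RVN replicate 1 or 3 (adjusted p up to 0.115). S100a9, a calcium-binding protein of neutrophils and monocytes, was at 4.63, 8.16 and 4.18 TPM in RVH, against 0.650, 1.96 and 1.41 TPM in RVN (1.94 ± 0.37, adjusted p = 0.00966), and its call held in every alternative fit. Of the 3 neutrophil markers described, S100a9 and S100a8 were higher (1 without RVH replicate 4), and Retnlg had a log2 fold change of -0.71 ± 1.01 (adjusted p = 0.679) with overlap. Ptprc, the CD45 antigen that leukocytes share, had 3.09, 3.41 and 2.53 TPM in RVH and 2.31, 3.18 and 2.50 TPM in RVN (0.06 ± 0.15, adjusted p = 0.809). Cd2, an adhesion receptor of T cells, was at 1.18, 1.63 and 0.706 TPM in RVH, against 2.73, 3.45 and 2.33 TPM in RVN (-1.40 ± 0.26, adjusted p = 0.00877). The groups did not overlap for Lyz2, S100a9 or Cd2. Of 9 T and NK cell markers Cd2 was the only one called, 3 of the 14 tested were lower, and no B cell marker reached the level of the genes described.

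The response of the LV of the same rats was set beside that of the RV. In LVH against LVN 96 of the genes tested were higher (0.698%) and 92 lower (0.669%). Of the 932 genes described that were higher in RVH, 872 had a positive and 61 a called positive fold change in the LV, with a median of 0.32. Of the 999 that were lower in RVH, 942 had a negative and 76 a called negative fold change in the LV, with a median of -0.31. The share of all genes described with the same sign in both ventricles was not taken, so these counts have no background. The ventricles come from the same rats, so the LV signs are not independent of those of the RV. A smaller number of calls does not show that the LV responded less, and the difference was tested itself: the RV effect minus the LV effect passed for 0 genes (0.0%) by the quasi-likelihood test of edgeR, with a smallest adjusted p of 0.228, that of Gsn and Gimap4. At an unadjusted p under 0.05, the RV effect minus the LV effect was positive for 541 and negative for 505 of the 13756 genes tested. The sign does not show in which ventricle the change was larger. DESeq2 called 12 and 5 and the likelihood ratio test of edgeR 19 and 9, and without LVH replicate 1 the quasi-likelihood test called 11 and 2. These fits took the libraries as independent, although both ventricles of a heart come from 1 rat. With the rat as a block (4 residual degrees of freedom) the quasi-likelihood test called 0 genes in each direction.

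Single genes show both patterns without a tested difference between the ventricles. Fam131c had log2 fold changes of -1.89 in the RV and -1.99 in the LV, and Inha 2.44 and 2.59. Both passed the test in either ventricle. Cdk1 had 3.10 in the RV and 1.02 in the LV, a difference of 2.08 (adjusted p = 0.581), and Gsn -0.95 in the RV and 0.00 in the LV, a difference of -0.96 (adjusted p = 0.228). The mean level of Nppa was higher in the LV in both exposures: 2378 TPM in LVH and 542 TPM in LVN, against 1303 TPM in RVH and 33.5 TPM in RVN. Its log2 fold changes were 5.13 in the RV and 2.05 in the LV, a difference of 3.08 (adjusted p = 0.504), and both ventricles passed the test. None of these differences passed the test, which does not show that the ventricles responded alike.

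**Figure D5:**
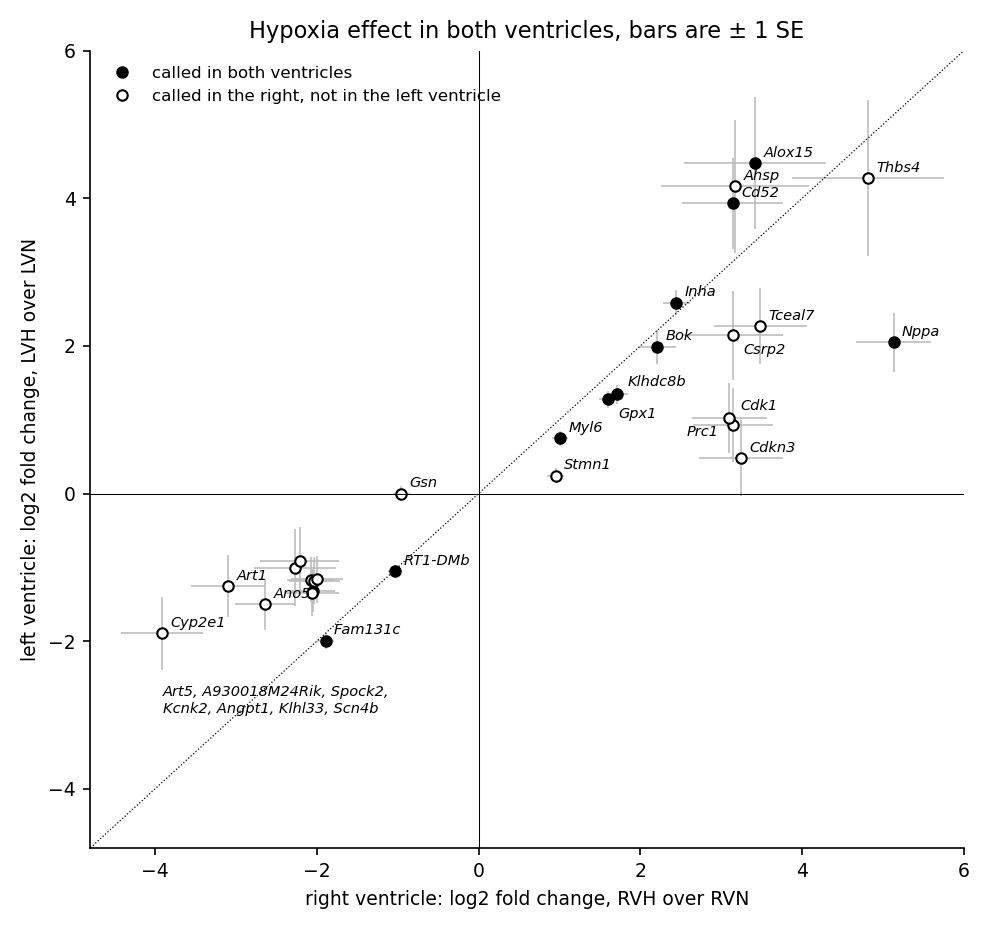
Log2 fold change with hypoxia of the genes named for the largest changes or the smallest adjusted p, with the right ventricle (RVH over RVN) on the x axis and the left (LVH over LVN) on the y axis; bars are 1 SE, filled points were called in both ventricles and open points in the right only, and the dotted line is equal change. Fam131c (-1.89 and -1.99) and Inha (2.44 and 2.59) lie near that line, and Nppa (5.13 and 2.05) and Cdk1 (3.10 and 1.02) lie below it.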

How the data were processed

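RNA from ventricular free walls was sequenced as poly(A)-selected, stranded 50-base single reads. The authors estimated transcript levels with kallisto 0.43.1 against Ensembl transcripts of Rnor_6.0 and deposited gene-level TPM and estimated counts in 1 table, which was used as it stands. In each library the deposited estimated counts were TPM multiplied by a constant. The 27 entries whose name is a number were left out, with 0.0408 to 0.0621% of a library. Lengths behind the values are not known from the table, and reads shared by near-identical genes were split by the estimate, so that 48 of the genes described have values identical to those of another entry.

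Estimated counts were rounded, filtered with filterByExpr over the 4 groups, scaled by TMM and fitted with glmQLFit and glmQLFTest of edgeR 4.0.16 (limma 3.58.1, R 4.3.3) in 1 model of the 12 libraries (8 residual degrees of freedom). The contrasts were RVH against RVN, LVH against LVN and their difference. The SE was taken from the fold change and the root of its F statistic. The authors' own methods used edgeR with the same threshold of 0.05. Precision is set by 3 rats a group, and p-values cover only the spread between these rats.

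The genes described and the lists were chosen with earlier results of these data known. Genes were named by a rule: among called genes with a symbol, no overlap and a mean level of 1 or more in log2 CPM, the 10 largest rises, the 10 largest falls and the 10 smallest adjusted p; every gene mentioned in the study; and, for each list, at most 5 members by smallest adjusted p. Of the 260 genes so named the text gives a part, picked with their values known. Alternatives were RLE factors, library totals, other filters, the likelihood ratio and exact tests, DESeq2 1.42.0, limma on log2(TPM + 0.1) and log2(TPM + 1), the 6 RV libraries alone, a replicate block, and each library left out. On simulated counts of 13517 genes for RVH against RVN the test recovered 17 of 67 genes changed 1.5-fold, 38 of 67 changed 2-fold and 56 of 66 changed 4-fold, and called 1 unchanged gene. The simulation changed far fewer genes than were called in the data and held no library that lay apart from its group. Its rates therefore need not hold for these data. Promoter windows came from RefSeq (GRCr8). Python 3.11.15 was used for summaries.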

Additional observations from a re-analysis of the deposited data

Results flagged for a closer look

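Xirp1, which encodes an actin-binding protein of the intercalated disc, had fitted fold changes of opposite sign in the ventricles. It was at 18.6, 22.1 and 21.4 TPM in RVH, against 31.8, 23.99 and 31.2 TPM in RVN (log2 fold change -0.60, adjusted p = 0.0349 by edgeR), with every RVH library below every RVN library, while in the LV every LVH library lay above every LVN library (log2 fold change 0.30). The RV effect minus the LV effect was -0.90 on the log2 scale, and its test did not pass (adjusted p = 0.504). The RV call was lost with library totals, with limma, and without RVH replicate 1 or 2 or RVN replicate 1 or 3.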

How the results depend on the processing

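No gene was called in opposite directions in the reported fit and any alternative. Against the 1022 higher and 1045 lower genes, the lower count was 429 with library totals, 414 and 427 with limma on log2(TPM + 0.1) and log2(TPM + 1), and 1586 with a replicate block by number, whose higher count was 1299. Leaving out 1 library gave 295 to 1242 higher and 278 to 1331 lower genes. Of the other alternatives, no low-count filter gave 870 and 816, DESeq2 1203 and 1070, and the 6 RV libraries alone 1030 and 854. For the RV effect minus the LV effect, 0 genes in each direction became 12 and 5 with DESeq2 and 19 and 9 with the likelihood ratio test, and 0 to 11 and 0 to 2 with 1 library left out. With the rat as a block, which pairs the ventricles of a heart, the counts stayed at 0. Of 187 named genes called, 83 kept the call in all alternatives and 0 reversed. Calls were lost most often without RVH replicate 2 (93), RVN replicate 1 (86), RVH replicate 1 (83) or RVN replicate 3 (77), against 10 without RVH replicate 4. The cause of these changes was not tested. The replicate numbers name different rats in RVH and RVN, so the numbers do not pair the samples. Residuals of same-numbered libraries had r of -0.049 and -0.009, other pairs -0.039 to 0.054. Residuals about a mean of 3 libraries are tied to each other, so these values cannot decide on pairing. The block left 5 residual degrees of freedom.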

Other observations

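Sln, the gene of the SERCA inhibitor sarcolipin, was picked with its values known. It was at 5.20, 7.56 and 16.9 TPM in RVH, against 38.0, 207 and 145 TPM in RVN (log2 fold change -3.79 ± 1.47, adjusted p = 0.106 by edgeR). All RVH libraries lay below all RVN libraries, the spread within each group was wide, and the call was not made. Sln stands in the list of atrial myocyte markers, as does Nppa. Of 10 members of that list 2, Nppa and Pam, were higher and 1, Stard10, was lower (median 0.06). With any 1 library left out 2 to 4 were higher and 0 to 2 lower.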
